A study of Mus musculus with 2 samples.

Results

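MHC class II high macrophages of the sham-operated mouse heart were 209 of the 14892 cell barcodes in 2 Drop-seq libraries, and 209 of the 6303 sham cells kept after barcodes above 25% mitochondrial UMIs were dropped, or 3.32% (exact binomial interval 2.89 to 3.79). A UMI is 1 counted transcript molecule. The sham library pooled 4 hearts from 8 to 10 week old C57BL6/J males, taken 14 days after an operation in which the coronary suture was left untied. It was set beside a library from 1 heart of the same strain, sex and age range, taken 14 days after the left anterior descending artery had been tied off (myocardial infarction, MI). Which cell came from which sham heart is not given, so each condition is 1 library with no replicate check, and no p-value was computed. All intervals are at 95% and cover counting error only.

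Tissue macrophages take up cells and debris, and some of them load peptides onto MHC class II proteins and show these to CD4+ T cells. The class II molecule pairs an alpha with a beta chain, is escorted by the invariant chain Cd74 and receives its peptide with the help of the H2-DM proteins. In the mouse heart, macrophages that carry Lyve1, Folr2 or Timd4 are known as long-lived resident cells, while Ccr2 is the receptor through which blood monocytes and cells made from them follow the chemokine Ccl2.

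The members were chosen by their own counts. A cell needed at least 0.4% of its UMIs in Ctss, Cd68, Csf1r, C1qa, C1qb and C1qc, at least 2 UMIs of the 3 C1q genes, and at least 0.4% in H2-Aa, H2-Ab1, H2-Eb1 and Cd74. It could have at most 1 UMI of the Lyve1 set (Lyve1, Folr2, Cbr2, Cd163 and F13a1), at most 2 UMIs of 5 cell cycle genes, and had to hold less than 1% of its UMIs in Dcn, Col1a2 and Col3a1. The clauses on macrophage, cell cycle and fibroblast genes left 1441 sham macrophages, of which 1217 held at least 2 UMIs of the Lyve1 set, 209 were the members and 15 were low in both sets of genes. The 209 cells held 297137 UMIs, with 708 at the least, 1219 at the median and 6696 at the most per cell, against 1949500 UMIs and a median of 1410 in the 1217 Lyve1-set cells. Values of genes in the rule are given as description.

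Genes of the rule are given as description, since they chose the cells, and genes outside the rule follow. Among the rule's genes, Cd74 was counted in 100% of members, H2-Ab1, a beta chain, in 99%, H2-Aa, an alpha chain, in 98.6%, C1qa, a chain of the complement starter C1q, in 92.3% and Csf1r, the receptor for the macrophage growth factor, in 45.9%. Among macrophage genes outside it, Lyz2, lysozyme, was counted in 97.1% of members and Mertk, a receptor for dying cells, in 18.2%. Levels are in CPM, the UMIs of the gene per 1000000 UMIs of the group. The 13 dendritic cell genes summed to 373.6 CPM in members and 243.7 in Lyve1-set cells. Of these, Flt3, Xcr1, Itgae and Ccr7 had 0 UMIs in the 209 cells, which with 3 counts as the floor allows up to 10.1 CPM. Flt3 and Ccr7 were near 0 in the Lyve1-set cells too, with 6 and 2 UMIs. Irf8, a transcription factor of dendritic cells and monocytes, had 161.5 CPM in members and 115.4 in Lyve1-set cells, and Batf3 had 117.8 in members and 57.96 in Lyve1-set cells. Itgax, the integrin chain CD11c, had 10 of 297137 UMIs in members and 7 of 1949500 in Lyve1-set cells. Per UMI it was thus higher in members, on few counts. The B cell genes summed to 181.7 CPM in members and 151.8 in Lyve1-set cells, mostly from Ighm, the IgM heavy chain, which was counted in 14.8% of members and 15.1% of Lyve1-set cells, while Cd79a, Ms4a1 and Igkc had 0 UMIs in members. The T and NK cell genes Cd3e, Nkg7, Gzma and Klrb1c also had 0 UMIs in members.

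The rule's limits cut a continuous spread on the Lyve1 side and, among the 224 macrophages low in the Lyve1 set, a near gap on the class II side. In the Lyve1-set cells class II ran across the limit, with a median of 0.474% and quartiles of 0.035% and 2.02%. The class II share of UMIs in the members was 0.417% at the least, 4.08% at the median and 9.65% at the most, and 201 of 209 members were at or above 1%. The members nearest the limit had 0.417%, 0.43% and 0.46%, and the nearest Lyve1-set low cells outside it had 0.308%, 0.151% and 0.12%. On the Lyve1 side, 136 members had 0 UMIs of the set and 73 had 1, and 68 further class II high macrophages stood just outside with 2 UMIs and 60 with 3.

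**Figure D1:**
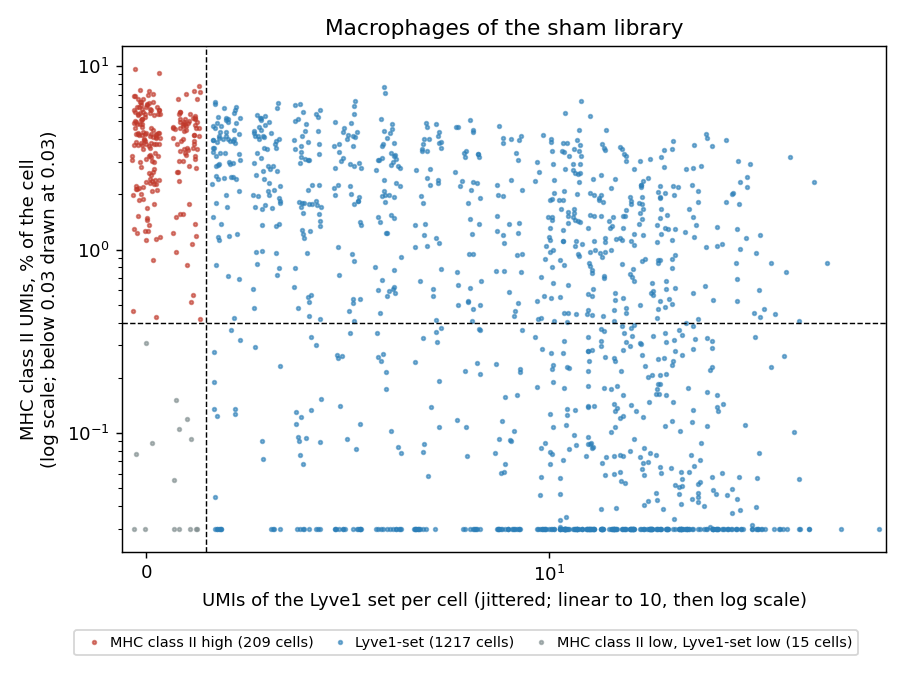
UMIs of the Lyve1 set (horizontal axis, counts per cell, jittered) against the class II share of UMIs (vertical axis, %, log scale) in the 1441 sham macrophages, with the rule's limits as dashed lines. The 209 members have a median of 4.08% and the 1217 Lyve1-set cells 0.474%, of which 640 lie above the 0.4% line.

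Class II genes are switched on together through promoter elements called the X and Y boxes, which bind the RFX and NF-Y factors and recruit the co-activator Ciita. The 120 bases before the RefSeq start of H2-Aa, H2-Eb1 and H2-DMb1 are shown because the rule rests on the first pair and the third is a peptide-loading gene outside the rule whose values follow. All are from RefSeq on GRCm38.p6, on the gene's own strand. GENCODE places the start of H2-DMb1 further upstream, at 34153072, so by that annotation most of its stretch lies after the start. Capitals mark matches on that strand to GATTGG (Y box core), TGACGTCA (X2 box core) or AACNGATG (X1 box core), letters that were chosen with these windows in view.
H2-Aa, chr17:34287824-34287943, minus strand: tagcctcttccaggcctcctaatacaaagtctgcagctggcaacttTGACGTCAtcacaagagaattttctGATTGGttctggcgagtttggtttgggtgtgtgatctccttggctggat
H2-Eb1, chr17:34305747-34305866, plus strand: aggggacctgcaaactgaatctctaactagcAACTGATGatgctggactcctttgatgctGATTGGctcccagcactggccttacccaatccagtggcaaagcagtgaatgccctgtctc
H2-DMb1, chr17:34153071-34153190, plus strand: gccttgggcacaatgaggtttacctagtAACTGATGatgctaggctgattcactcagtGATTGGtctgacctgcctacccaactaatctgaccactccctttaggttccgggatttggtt

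The Y box letters began 49 bases before the RefSeq start of H2-Aa, 60 before that of H2-Eb1 and 62 before that of H2-DMb1. H2-Eb1 also held them on the other strand, 35 bases before its start, which the capitals do not mark. With both strands searched over windows of 250 bases before to 50 after the start, GATTGG was in 8 of the 9 windows of the class II genes found there, against 16.1% of all 32851 windows. AACNGATG was in 4 of the 9 and in 2.32% of all windows, and TGACGTCA was in 1 of the 9 and in 1.79% of all. Of 11 genes searched, 8 had a window, and H2-Ab1, Cd74 and Ciita did not. A match is a description of the letters, not of factor binding.

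Class II genes outside the rule were higher in the members than in the Lyve1-set cells of the same library. The rule chose members by class II and took Lyve1-set cells at any class II level. The difference is therefore close to what chose the cells. H2-DMa, the alpha chain of the peptide-loading protein, had 548.6 CPM in members (467.6 to 639.5) and 191.8 in Lyve1-set cells (172.9 to 212.3), a log2 ratio of 1.52 (1.24 to 1.78). H2-DMb1, its beta chain, had 410.6 CPM in members and 159.0 in Lyve1-set cells, a log2 ratio of 1.37 (1.05 to 1.68). H2-DMa was counted in 49.8% of members and 21.8% of Lyve1-set cells, and in 24.9% of members and 9.78% of Lyve1-set cells when each cell was thinned to 500 UMIs. In the 1164 fibroblasts of the same library (at least 2% of UMIs in Dcn, Col1a2 and Col3a1), which should lack it, 0.43% of cells had a UMI of H2-DMa at a median of 1428 UMIs per cell.

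Of the 13 genes listed for class II peptide loading and regulation, 9 had at least 20 UMIs over both groups, and 4 of these were higher in members by 2-fold or more and 0 lower (median log2 ratio 0.79). Over all 8806 genes so tested, 5.3% were at least 2-fold higher and 11% at least 2-fold lower, and the median was -0.07. The 4 were H2-DMa, H2-DMb1, H2-DMb2 and Ciita, the co-activator. Ciita rested on 15 UMIs in members, and without the 10 members that held most of them its log2 ratio turned to -0.83. By contrast 0 of 11 MHC class I presentation genes were 2-fold apart in either direction, with a median log2 ratio of 0.16. B2m, the class I light chain, had 4937 CPM in members and 4427 in Lyve1-set cells. Of 7 co-stimulatory genes with enough UMIs, 1 was at least 2-fold higher in members and 1 lower, with a median log2 ratio of 0.33. The lower was Cd40, on 2 UMIs in members. The higher was Icosl, a ligand for the T cell receptor Icos, at a log2 ratio of 1.28 (0.46 to 2.04). Cd86 had 164.9 CPM in members and 131.3 in Lyve1-set cells, with an interval of the ratio that spans 0 (-0.14 to 0.77).

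The chemokine receptors Ccr2 and Cx3cr1 and the cytokine gene Il1b were higher in the members than in the Lyve1-set cells. Ccr2 had 1242 CPM in members (1118 to 1375) and 138.0 in Lyve1-set cells (122.0 to 155.5), a log2 ratio of 3.17 (2.94 to 3.40). Il1b, which encodes interleukin 1 beta, had 764.0 CPM in members and 111.3 in Lyve1-set cells, a log2 ratio of 2.78 (2.50 to 3.05). Cx3cr1, the fractalkine receptor of monocytes and many tissue macrophages, had 733.7 CPM in members and 196.5 in Lyve1-set cells, a log2 ratio of 1.90 (1.65 to 2.14).

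Each of the 3 genes was unevenly spread over the members. The 10 members with most UMIs of the gene held 30.1% of all Ccr2 UMIs, 43.2% of those of Il1b and 26.1% of those of Cx3cr1. Without those 10 members, and with the Lyve1-set cells kept whole, the log2 ratios were 2.77, 2.07 and 1.55 for Ccr2, Il1b and Cx3cr1. Against only the 640 Lyve1-set cells that also passed the class II limit they were 2.20, 1.94 and 1.38, all above 2-fold, with class II low cells taken out of the comparison.

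The other genes named on the higher side joined signalling and surface proteins of white blood cells. Cd52, a small surface glycoprotein, had 1094 CPM in members and 336.5 in Lyve1-set cells, a log2 ratio of 1.70. Fcgr4, an activating receptor for IgG, stood at a log2 ratio of 2.17, Slamf7, a self-binding receptor of leukocytes, at 2.58, and Gngt2, a G protein gamma subunit, at 2.17. Zmynd15, Coro2a and Gadd45g, for which no role in these cells is given here, stood at 2.89, 2.28 and 2.38. Rgs1, a brake on chemokine receptor signalling, stood at 2.61 on 39 UMIs, and without the 10 members that held most of them at -0.98. Bcl2a1a, a relative of the survival protein Bcl2, stood at 1.95, but its near-identical copies make its count uncertain.

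Of 12 inflammatory cytokine and NF-kB genes, 8 had enough UMIs, 2 were at least 2-fold higher in members (Il1b and Nlrp3, the inflammasome sensor) and 0 were lower, with a median log2 ratio of 0.71. Of all genes tested, 5.3% were at least 2-fold higher and 11% lower. Tnf stood just under 2-fold at 0.97, with 107.7 CPM in members and 54.89 in Lyve1-set cells, and Il6, Il1a and Ptgs2 had 0 UMIs in members. Among 12 monocyte genes 5 had enough UMIs, and 2 (Ccr2 and Ms4a4c) were at least 2-fold higher and 0 lower (median log2 ratio 0.73). Ly6c2, a surface protein of young monocytes, had 90.87 CPM in members and 54.89 in Lyve1-set cells, and S100a4, a calcium-binding protein, had 151.4 CPM in members and 245.7 in Lyve1-set cells. Vcan, Chi3l3 and Plac8 had 0, 0 and 2 UMIs in members and 7, 1 and 17 in Lyve1-set cells, too few to compare. Immediate early genes, which dissociation is known to switch on, had a median log2 ratio of -0.04, with 0 of 15 at least 2-fold higher and 1 lower.

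**Figure D2:**
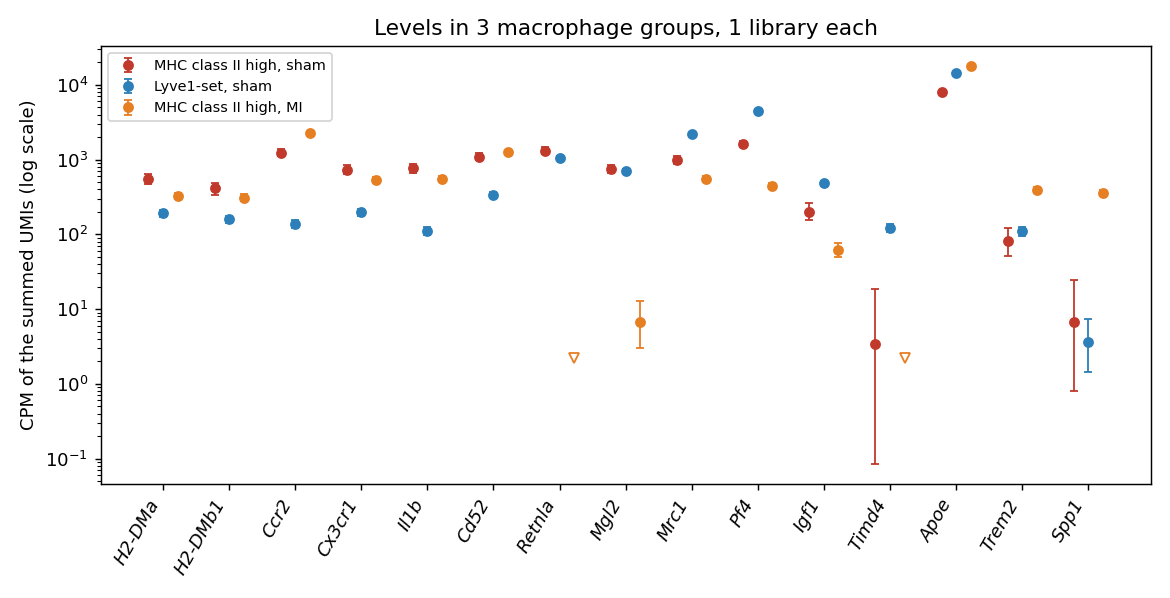
Level of 15 genes (CPM of the group's summed UMIs, log scale, exact Poisson 95% intervals) in the MHC class II high and Lyve1-set macrophages of the sham library and the MHC class II high macrophages of the MI library, with an open triangle at the level of 3 counts where a group had 0. Ccr2 reads 1242 CPM in sham members, 138.0 in Lyve1-set cells and 2267 in MI cells, and Mgl2 reads 750.5, 705.8 and 6.68.

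Resident macrophage genes outside the rule were lower in the members, all 14 of the list by 2-fold or more (median log2 ratio -1.68). The rule removes cells with these genes' companions, so this is close to what chose the cells. Timd4, a receptor for phosphatidylserine on dying cells, had 1 UMI in the members and 239 in the Lyve1-set cells. Fcna, a soluble ficolin that binds sugars, had 0 UMIs in members and 365 in Lyve1-set cells, so it was at least 18.5-fold lower with 3 counts over the members as the floor. Igf1, a growth factor, had 201.9 CPM in members and 478.6 in Lyve1-set cells, a log2 ratio of -1.24 (-1.65 to -0.87). Mrc1, the mannose receptor, stayed at 996.2 CPM in members beside 2181 in Lyve1-set cells and was counted in 66.5% of members.

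Chemokine genes moved in both directions. Of 16 with enough UMIs, 4 were higher in members by 2-fold or more and 9 lower (median log2 ratio -1.13), where 5.3% and 11% of all genes tested were. The higher ones were Ccl3, Ccl4, Cxcl2 and Cxcl16, and Ccl3 had 195.2 CPM in members and 68.22 in Lyve1-set cells, a log2 ratio of 1.52 (1.05 to 1.97). The lower ones included the monocyte attractants Ccl2 and Ccl7, the T cell attractant Cxcl9, Ccl8, a monocyte and eosinophil attractant, with 0 UMIs in members and 393 in Lyve1-set cells, and Ccl24, which draws eosinophils, at a log2 ratio of -3.27. Pf4, a platelet chemokine that heart macrophages also carry, had 1595 CPM in members and 4484 in Lyve1-set cells. Reads of the Ccl genes can be shared among close relatives.

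Several genes of complement, iron handling and uptake were lower too. Of all genes tested against Lyve1-set cells, 11% were at least 2-fold lower in members and 5.3% higher. Of 8 complement genes outside the rule, 5 were at least 2-fold lower in members and 0 higher (median -1.45), among them C4b at a log2 ratio of -5.36. C4a and C4b are near copies, so the split between them is uncertain. Of 6 iron handling genes, Slc40a1, the iron exporter, Tfrc, the transferrin receptor, and Hmox1, which breaks down heme, were at least 2-fold lower and 0 higher, on 2, 2 and 13 UMIs in members, while the ferritin heavy chain Fth1 stood at 0.20. Of 12 genes for phagocytic receptors and bridging ligands, 5 were lower and Axl, a receptor that binds Gas6 on dying cells, was higher at 1.36 (0.72 to 1.98), while its ligand Gas6 stood at -1.70 (-2.11 to -1.33). The median of that list was -0.12, close to the -0.07 of all genes. Gas6 had 198.6 CPM in members and 647.3 in Lyve1-set cells.

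**Figure D3:**
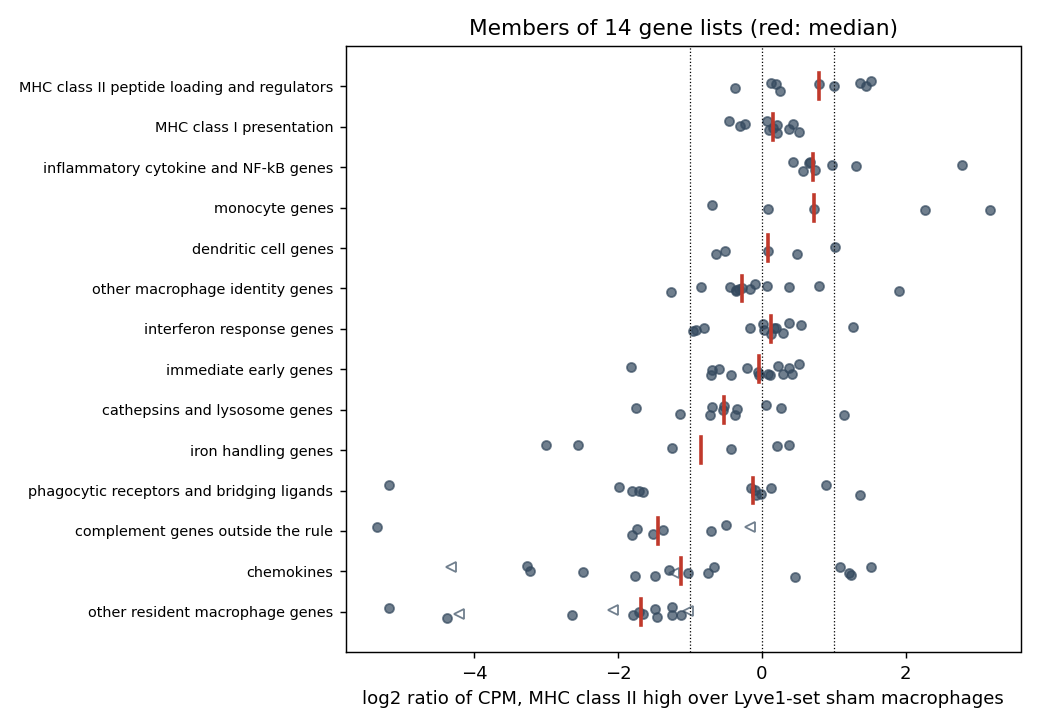
log2 ratio of CPM, MHC class II high over Lyve1-set sham macrophages, for the genes with at least 20 UMIs of 14 lists (points; open triangles are bounds where members had 0 UMIs; red bars are list medians; dotted lines mark 0 and 2-fold). The class II loading list has a median of 0.79 and the resident list -1.68.

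Markers of other heart cells were present at low levels and differed between the groups. The 8 endothelial genes summed to 2793 CPM in members and 1890 in Lyve1-set cells, with a median log2 ratio of 0.66, and 22 of 209 members (10.5%) and 73 of 1217 Lyve1-set cells (6%) had at least 2 UMIs of the endothelial set that was used to find mixed cells. Without such cells that median was 0.08, in part by construction, since the genes of the set are also in the list. Ccr2, Il1b and Cx3cr1 then stood at 3.06, 2.53 and 1.98. A doublet caller marked 16 of 209 members (7.66%) and 88 of 1217 Lyve1-set cells (7.23%), and without marked cells those 3 genes stood at 3.18, 2.75 and 1.89. The 5 mural cell genes summed to 451.0 CPM in members and 174.4 in Lyve1-set cells, and of 3 with enough UMIs 2 were at least 2-fold higher (Rgs5 at 1.48 and Kcnj8 at 1.47). Rgs5 was counted in 8.13% of members and 8.38% of Lyve1-set cells, with 52 of its 117 UMIs in 1 member. The T and NK cell genes summed to 5 UMIs in members (16.83 CPM) and 4 in Lyve1-set cells (2.05 CPM). Their part in the differences above was not tested beyond these values.

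Unsupervised clusters of the sham library, which used these genes, placed 188 of 209 members (90%) in 1 cluster of 599 cells led by Ccr2, the Bcl2a1 genes and Il1b, together with 326 of the 1217 Lyve1-set cells (26.8%). Another 7 members lay in a cluster led by interferon response genes, and 6 in the cluster led by Folr2 and F13a1 that held 784 Lyve1-set cells (64.4%). The members were thus part of a cluster and not a cluster of their own. The doublet caller marked 73 of the 599 cells in that cluster.

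Ccr2 divided the members. It had 0 UMIs in 128 of the 209 cells, 1 UMI in 14, 2 to 4 in 33 and 5 or more in 34, up to 22 in 1 cell. In the Lyve1-set cells 1157 of 1217 had 0, 21 had 2 to 4 and 20 had 5 or more. In the 1164 fibroblasts 6 had 1 UMI and 0 had more. In the 1619 sham endothelial cells (at least 5 UMIs of Cdh5, Pecam1, Kdr, Egfl7 and Emcn) 3 had 2 to 4 and 2 had 5 or more, up to 7. A count of 2 or more, as in 67 members, was thus rare but not absent in these cells.

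**Figure D4:**
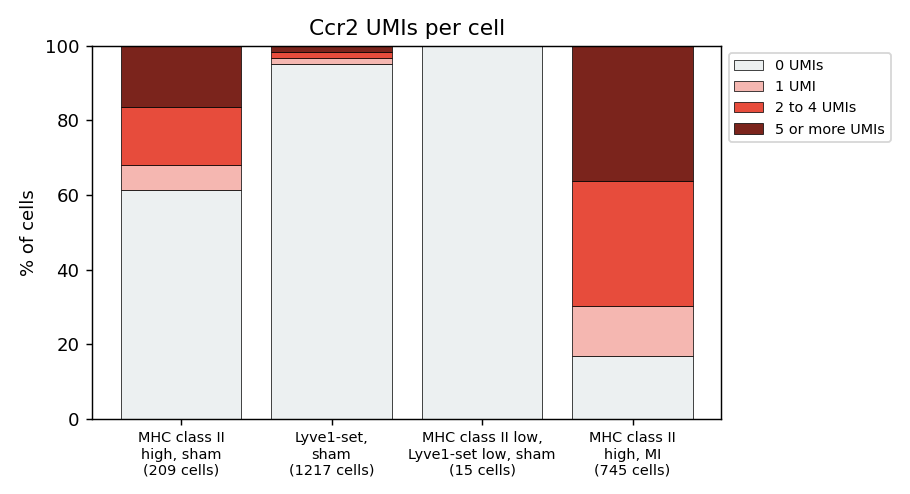
Share of cells (%) by their number of Ccr2 UMIs in the MHC class II high, Lyve1-set and doubly low sham macrophages and in the MHC class II high MI macrophages. Members have 128 of 209 cells at 0 and 34 at 5 or more, against 125 and 269 of 745 in the MI cells.

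The 67 members with at least 2 Ccr2 UMIs were set against the 128 with none, a split made after the values had been seen. Depth was close, with medians of 1377 and 1166 UMIs per cell, and so was class II, at 4.34% and 3.73% of UMIs. H2-Ab1 had 10200 CPM in Ccr2 members and 8495 in members without Ccr2, a log2 ratio of 0.26 (0.15 to 0.38), and Cd74 stood at 0.00 (-0.09 to 0.09). Of 2333 genes with enough UMIs, 4.29% were at least 2-fold higher and 6.99% at least 2-fold lower in the Ccr2 members. At least 2 endothelial UMIs were found in 9 of the 67 Ccr2 members and 11 of the 128 without Ccr2. The endothelial genes Flt1, Ptprb and Egfl7 stood at 2.18, 2.00 and 1.26, or at 1.29, 0.39 and 0.81 without doublets and cells with endothelial UMIs. Fabp4, Kdr and Cdh5 stood at 0.62, 0.36 and 0.28, and at 1.10, 1.39 and 0.81 without those cells. Egfl7, Kdr and Cdh5 belong to the set that removed the cells, so each cell left held fewer than 2 UMIs of the whole set. Their values without those cells rest on few counts and cannot show a rise or a fall.

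S100a6, S100a4 and Anxa1 were among the genes higher in the Ccr2 members, named after their values had been seen. S100a6, a calcium-binding protein, had 430.7 CPM in Ccr2 members and 42.2 in members without Ccr2, a log2 ratio of 3.35 (2.20 to 4.74), and S100a4, which had been lower in members than in Lyve1-set cells, stood at 2.82 (1.63 to 4.24). Anxa1, an annexin that binds membranes and limits inflammation, stood at 3.40 (1.89 to 5.37), Cfp, the complement activator properdin, at 2.40 (1.24 to 3.74) and Ccl9 at 1.99 (1.11 to 2.95). Cxcl12, a chemokine that stromal cells also make, stood at 3.08 (1.69 to 4.81). Ly6c2 stood at 2.61, but at 0.81 without cells that were called doublets or had endothelial UMIs. S100a6, Anxa1 and S100a4 rest on 7, 4 and 7 UMIs in the members without Ccr2.

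Other genes were lower in the Ccr2 members. Apoe, the lipid carrier, had 3077 CPM in Ccr2 members (2763 to 3417) and 11430 in members without Ccr2 (10920 to 11960), a log2 ratio of -1.89 (-2.06 to -1.73). Ccl12 stood at -3.98 (-5.89 to -2.57), Ccl4 at -3.08, the scavenger receptor Stab1 at -2.53 and Cd63, a protein of lysosome membranes, at -2.66. Cd83 and Cd86, which mark activated antigen-presenting cells, stood at -2.02 and -1.97. Macrophage genes were mixed. Csf1r stood at -0.84 (-1.40 to -0.31), C1qc at -0.72 (-0.91 to -0.53) and Ms4a7 at -1.28 (-1.91 to -0.70). The intervals of Mrc1 at -0.23 (-0.59 to 0.13) and of Mertk at -0.55 (-1.54 to 0.38) spanned 0. So did those of Cd68 at 0.54 and Ctss at 0.16.

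Cx3cr1 and Il1b, which separated the members from the Lyve1-set cells, did not follow Ccr2 within the members. Cx3cr1 had 509.9 CPM in Ccr2 members and 910.4 in members without Ccr2, a log2 ratio of -0.84 (-1.30 to -0.39), and after thinning it was counted in 27.7% of cells with a Ccr2 UMI and 27.8% of cells without. Il1b stood at -0.55 (-0.98 to -0.14). Lyz2, at 0.03 (-0.10 to 0.15), and Mgl2, a galactose-binding lectin, at -0.02 (-0.44 to 0.39), were close between the 2 sets of cells.

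**Figure D5:**
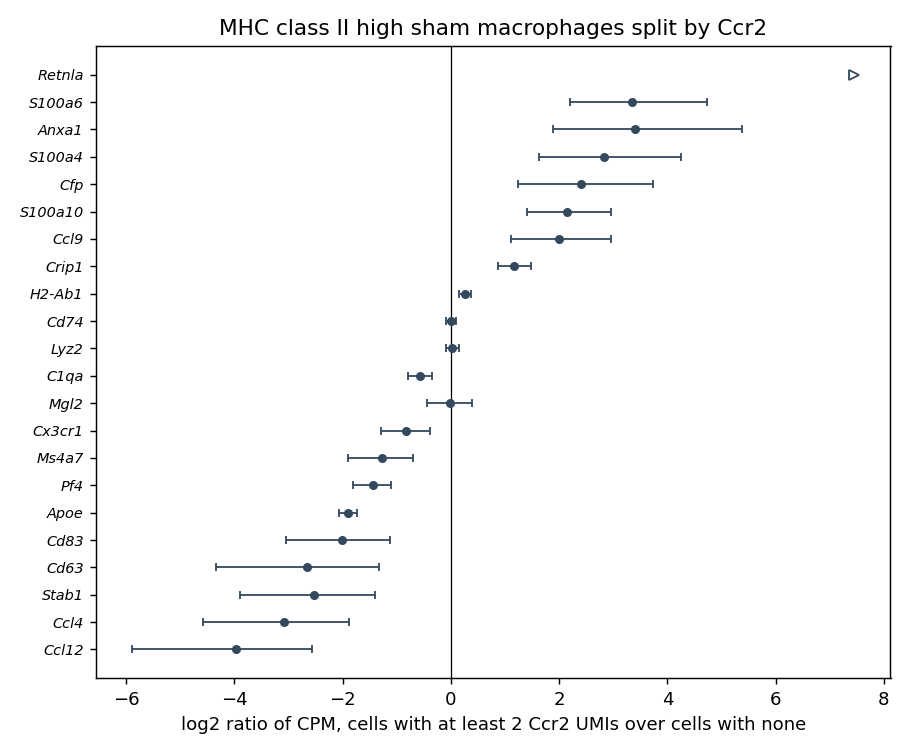
log2 ratio of CPM in the 67 members with at least 2 Ccr2 UMIs over the 128 members with none, with exact 95% intervals and an open triangle for a bound against 0 UMIs. S100a6 stands at 3.35 and Apoe at -1.89, with Cd74 at 0.00 between them.

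Retnla, a secreted protein of alternatively activated macrophages, was the most concentrated gene among those followed in the members. This leaves aside Plac8, Cd209a and Spp1, which had only 2, 1 and 2 UMIs there. Its 391 UMIs came from 9 cells (4.31%), 1 of which held 243, and all 9 had Ccr2 UMIs while 0 of the 128 cells without Ccr2 had any Retnla. In 6 of the 9 cells Retnla had at least 10 UMIs, and 7 of the 9 held at most 1 Apoe UMI each. The caller marked 2 of the 9 as doublets, and 4 of the 9 had at least 2 endothelial UMIs, against 22 of all 209 members. The fibroblasts of the library had 7 Retnla UMIs in 6 of 1164 cells, and the Lyve1-set cells had 2066 in 127 of 1217 (10.4%). A total of this kind describes the few cells and not the members as a group, although the group values, 1316 CPM in members and 1060 in Lyve1-set cells, look alike.

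The 15 sham macrophages low in both the Lyve1 set and class II were a small comparison, with 21897 UMIs in all. Beyond the class II genes of the rule, members had 163 UMIs of H2-DMa and these cells 1, a log2 ratio of 3.59 (1.09 to 8.90). Class II is what parted the groups, so the H2-DMa value is close to what chose the cells. Ccr2 had 369 UMIs in members and 0 in these cells, so it was at least 9.06-fold higher. Of 2624 genes with enough UMIs, 10.4% were at least 2-fold higher in members and 14% at least 2-fold lower. Maf, a transcription factor of resident macrophages, stood at -1.24 (-1.62 to -0.84), and Pf4 at -1.06 (-1.42 to -0.69). Maf and Pf4 stood at -0.44 and -0.72 with the rule applied to cells thinned to 500 UMIs. Thinning changed which cells were chosen, while levels came from all their UMIs. Class II was then high in 360 of 440 cells low in the Lyve1 set, so other cells were compared. In that setting 0 of the 12 genes named as lowest stayed 2-fold lower. H2-DMa stood at 1.69 with class II at least 0.8%, and several other values turned sign when the limits of the rule were moved.

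Set against MI, the members were a smaller part of the macrophages at the depth sequenced, a gap that was not seen with the rule applied at 500 UMIs per cell. The same rule found 745 cells in the MI library, or 24.56% of 3034 MI macrophages, and the members were 14.5% of the 1441 sham macrophages. Among macrophages with at most 1 UMI of the Lyve1 set, class II was at or above the limit in 209 of 224 sham cells (93.3%, 89.2 to 96.2) and in 745 of 2107 MI cells (35.36%, 33.31 to 37.44). Thinned to 500 UMIs, these shares were 81.82% in sham and 27.28% in MI. The median class II share of UMIs was 4.08% in the members and 1.89% in the MI cells, a value that the rule used in both libraries. Of the 4 class II genes of the rule only Cd74 was 2-fold apart, with 14370 CPM in members and 3815 in MI cells, while the log2 ratios of H2-Aa, H2-Ab1 and H2-Eb1 were 0.40, 0.58 and 0.61.

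Thinning also showed how far the count of members depends on depth. With 500 UMIs per cell, 360 of 1434 sham macrophages (25.1%) met the rule, since a cell with few Lyve1-set UMIs then more often has at most 1, and 191 of the 209 members (91.39%) still met it. In MI 501 of the 745 cells (67.25%) still met the rule, and the macrophages fell from 3034 to 2454. After thinning the share was thus 25.1% in sham and 24.49% in MI, in groups whose cells had changed to different extents. The shares in 1 heart and in 1 pool of 4 cannot be told apart from differences between animals.

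Monocyte genes were lower in the members than in the MI cells of the same rule. Of 12, 8 had enough UMIs, of which 6 were lower in members by 2-fold or more and 0 higher (median log2 ratio -1.74). The 6 included Plac8, S100a4, Chi3l3 and Ms4a4c, but not Ccr2. Over all 7314 genes so tested 9.73% were at least 2-fold lower and 11.1% higher, with a median of 0.07. Ccr2 had 1242 CPM in members and 2267 in MI cells, a log2 ratio of -0.87 (-1.03 to -0.71), and was counted in 38.8% of members and 83.2% of MI cells, or 31.1% and 58.0% after thinning. Il1b and Cx3cr1 were much closer, with 764.0 CPM in members and 557.9 in MI cells for Il1b, and 733.7 in members and 537.8 in MI cells for Cx3cr1. Without the 10 members with most UMIs, and with the MI cells kept whole, their log2 ratios were -0.26 and 0.09. With the top 10 cells left out of both groups, Il1b had 467.1 CPM in each. Cx3cr1 then had 574.3 CPM in members and 503.6 in MI cells.

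Genes of lipid-associated macrophages, which take up debris and lipid in injured tissue, were also lower in the members. Of 12, 7 were lower by 2-fold or more and 2 higher (median log2 ratio -1.22). Spp1, osteopontin, had 2 UMIs in the members and 485 in the MI cells, and Trem2, a lipid receptor, had 80.77 CPM in members and 393.2 in MI cells, a log2 ratio of -2.28 (-2.94 to -1.69). Apoe had 7953 CPM in members and 17710 in MI cells. Ctsd, a lysosomal protease, stood at -2.75, Thbs1, a matrix protein that activates TGF beta, at -4.26, and Osm, a cytokine that acts on fibroblasts and heart muscle cells, had 1 UMI in members and 156 in MI cells.

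Lpl, which releases fatty acids from lipoproteins, and the scavenger receptor Cd36 ran the other way within the same list. Lpl had 437.5 CPM in members and 140.9 in MI cells, a log2 ratio of 1.63 (1.30 to 1.96), and Cd36 stood at 5.30 (4.69 to 5.98). Endothelial cells also make Cd36, and the sham cells with at least 5 UMIs of Cdh5, Pecam1, Kdr, Egfl7 and Emcn had 3946 CPM of it. The 8 endothelial genes were all at least 2-fold higher in members, with a median log2 ratio of 3.66, and summed to 2793 CPM in members and 126.1 in MI cells. Without cells called doublets Cd36 stood at 4.38, Fabp4, a fatty acid carrier, at 3.74 beside 4.97 with all cells, and the pericyte gene Rgs5 at 2.84 beside 5.47. Without cells with endothelial UMIs Cd36 stood at 4.21 and Rgs5 at 2.42, and the part of other cells in what remains was not tested.

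Of 7 fibroblast genes with enough UMIs, 3 collagen genes were at least 2-fold lower in the members than in the MI cells and 1 (Gsn, an actin-severing protein) was higher (median log2 ratio -0.74). The matrix genes Dcn, at 0.80 (0.24 to 1.34), and Sparcl1, at 3.46 (2.83 to 4.13), stood on the higher side. Col1a1 had 1 UMI in members and 410 in MI cells, and Postn, periostin, 1 and 127. Col1a2, which the rule capped, was counted in 6.22% of members and 78.9% of MI cells, and in 3.33% of sham and 79.3% of MI T and NK cells (at least 3 UMIs of T and NK genes and at most 3 of the macrophage set), which should lack it. The part of stray RNA in Col1a1, Postn, Lox, Sfrp1, Mmp14 and Thbs1, which stood among the genes lowest in members, was not tested. Nor was it tested for S100a4.

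A further set of genes was high in the sham members and nearly missing from the MI class II high cells, and for Mgl2 and Lilra5 from the MI Lyve1-set cells too. Mgl2 had 750.5 CPM in members and 6.68 in MI class II high cells, a log2 ratio of 6.81 (5.86 to 7.96), and was counted in 55.0% of members and 0.537% of MI cells. It was as high in the sham Lyve1-set cells, at 705.8 CPM, and as low in the MI Lyve1-set cells, at 3.88 CPM. Lilra5, a leukocyte receptor of the immunoglobulin family, followed the same pattern, with 282.7 CPM in members, 165.7 in sham Lyve1-set cells, 7.42 in MI class II high cells and 3.40 in MI Lyve1-set cells. St3gal6, a sialyltransferase, had 205.3 CPM in members and 12.61 in MI class II high cells, and Xlr, an X-linked gene first known from lymphocytes, had 171.6 and 3.71. Mgl2 and Lilra5 were at or near 0 in the sham fibroblasts, with 0.541 CPM of Mgl2 and 0 UMIs of Lilra5. Without cells with endothelial UMIs the log2 ratios were 6.82 for Mgl2 and 5.39 for Lilra5.

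Retnla had 391 UMIs in the members and 0 in the MI class II high cells, carried by the 9 cells described above. Resident genes outside the rule were mixed between the libraries, with 3 of 9 at least 2-fold higher in members (Pf4, Igf1 and Gas6) and 1 lower. Pf4 had 1595 CPM in members and 442.1 in MI cells, a log2 ratio of 1.85 (1.67 to 2.03), and Igf1 had 201.9 CPM in members and 62.31 in MI cells. Of 11 MHC class I genes, H2-D1, H2-Q7 and H2-T23 were at least 2-fold higher in members and 0 lower. The class I heavy chain genes are close copies, so the share of each is uncertain.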

How the data were processed

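Drop-seq libraries were made from 4 pooled sham hearts and from 1 MI heart, with 12 PCR cycles, per the labels' protocols. The authors deposited UMI counts by gene and barcode without normalization, and the submitters' processing notes name Seurat and the build mm10. The aligner is not stated by the labels or headers (not given in the sources used here). The sham library held 6337 barcodes and 11307405 UMIs (median 1424), and the MI library held 8555 barcodes and 33275336 UMIs (median 2466), each barcode with at least 500 genes. The median of the MI library is higher, so shares of cells with a UMI are also given after thinning each cell to 500 UMIs. Barcodes ending in N, 671 in sham and 317 in MI, were kept. The libraries shared 5 barcodes, 0 of them members.

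The rule was applied to the counts, UMIs were summed over the cells of each group, and levels are CPM with exact Poisson intervals, shares have exact Clopper-Pearson intervals, and the log2 ratio has an exact conditional binomial interval, all at 95%. Genes needed 20 UMIs over both groups, and a group at 0 was set to 3 counts over the group, which makes the ratio a bound. A gene counts as higher or lower by a 2-fold difference, with no test. The members, the 31 gene lists and the split by Ccr2 were chosen with earlier results of these data known. A few genes of the lists are not reported here by name. The text names, for each comparison, genes of the lists and those of the 12 highest and 12 lowest. The latter were ranked by the interval bound nearest to a ratio of 1, among genes with at least 50 UMIs and 5% of cells in 1 group. Doublets were called with scrublet and kept, and removed in an alternative. Other alternatives moved the limits on mitochondrial, macrophage, class II and Lyve1-set UMIs (those on C1q, cell cycle and fibroblast UMIs were not moved), the count minimum, the scaling and the comparison cells. The calculation of ratios was tested on simulated data. Software versions were scanpy 1.11.5 with anndata 0.12.19 and leidenalg 0.10.2, pandas 2.3.3, scipy 1.17.1 with numpy 2.4.6, matplotlib 3.10.9 and Python 3.11.15.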

Additional observations from a re-analysis of the deposited data

How the results depend on the processing

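No paired analysis was possible because each condition is 1 library, and no replicate could be left out. Of 101 other values for shares and counts of genes, 83 stayed within 1.5 times or within their interval. The MI share of macrophages was 27.22% with class II at least 0.2%, 20.34% at 0.8% and 26.54% with at most 10% mitochondrial UMIs, against 24.56%. With the rule applied to cells thinned to 500 UMIs, members were 5.71% of kept sham cells and 25.1% of macrophages. In that setting, with levels from all UMIs of the cells chosen, 563 genes were lower than in Lyve1-set cells. Without cells with endothelial UMIs members were 4.99% of kept cells, by construction since the denominator falls too. With 50 UMIs as the minimum, 155 genes were higher and 452 lower against Lyve1-set cells, 115 and 58 against the 15 doubly low cells, and 314 and 351 against MI. With a minimum of 1 UMI, 7607 were higher against Lyve1-set cells, 9177 lower against doubly low cells and 6358 higher against MI, since bounds from few counts then enter. Against Lyve1-set cells that pass the class II limit, an alternative chosen after seeing the data like the removal of endothelial or top 10 cells, 300 genes were higher and 575 lower. Of 1471 values for single genes, 191 moved out of their interval. Turns of sign from values under 2-fold, as for Il1b against MI, were not counted apart. A further 12 log2 ratios turned sign from 2-fold or more. Against the doubly low cells these were Mgp (0.65 without doublets, 1.92 with class II at least 0.2%, 0.75 without endothelial cells), Retnla (-3.75), Il1b (-0.52), Ccl6 (-0.44) and Crip1 (-1.21) with class II at least 0.8%, and Ccl6 (-0.32), Crip1 (-0.27) and Arhgef6 (0.29) with the rule applied to thinned cells. The first values rest on 15 doubly low cells, and moving the class II limit or thinning changed which cells were compared. The cause was not tested. Against Lyve1-set cells Rgs1 (-0.98) and Ciita (-0.83) turned without their top 10 members, by construction since the compared cells were kept whole. The B cell list against MI turned to 1.44 with a minimum of 1 UMI. All 12 genes named as higher than in Lyve1-set cells were at least 2-fold higher under every change of the rule's limits tried. Of the 12 named as lower than in the doubly low cells, 0 stayed so with the rule applied to thinned cells.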

Other observations

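Of 11 transcription factor genes of the macrophage lineage with enough UMIs, 2 were at least 2-fold higher in members than in Lyve1-set cells and 2 lower, with a median log2 ratio of -0.28, where 5.3% and 11% of all genes were. Runx3, known in antigen-presenting and epidermal macrophage lineages, stood at a log2 ratio of 2.19 (1.49 to 2.87), with 107.7 CPM in members and 23.6 in Lyve1-set cells, and Batf3, a factor of cross-presenting dendritic cells, at 1.02 (0.43 to 1.58). Klf4, a factor of monocytes and resident macrophages, stood at -1.51 (-1.99 to -1.06), and 141.3 CPM was seen in members and 402.2 in Lyve1-set cells. Spi1, the master factor of the myeloid line, had 376.9 CPM in members and 293.9 in Lyve1-set cells. Maf was the second lower gene, at -1.27 (-1.43 to -1.12).

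Interferon response genes gave little difference as a list, with 1 of 13 at least 2-fold higher in members than in Lyve1-set cells (Ifit2) and a median log2 ratio of 0.13. The hemoglobin gene Hbb-bs had 1 UMI in the Ccr2 members and 61 in the members without Ccr2. The antibody gene Igkc had 0 UMIs in the members and 755 in the MI class II high cells, where 733 of them lay in 1 cell and 2.82% of cells had any.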
